A study of Mus musculus with 32 samples.

Results

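LAG-3 deletion was examined in microglia of SOD1G93A mice at the early symptomatic stage by comparing 3 SOD1G93A/LAG-3-/- with 3 SOD1G93A/LAG-3+/+ libraries, 6 of the 32 RNA-seq libraries of the series, chosen by their labels of age and genotype. All mice were 120 days old (P120) and carried the SOD1*G93A transgene (B6.Cg-Tg(SOD1*G93A)1Gur/J), which encodes a human SOD1 variant and models amyotrophic lateral sclerosis, so both groups were diseased and no non-transgenic P120 library entered the comparison. The LAG-3-/- mice carried the Lag3tm1Doi allele (B6.129S6(Cg)-Lag3tm1Doi/J), a constitutive disruption present in all cells of the animal and not only in microglia. Both genotypes were littermates from LAG-3-heterozygous crosses. Each genotype held both sexes. Microglia were sorted as CD11b+/CD45int cells from the lumbar spinal cord of perfused mice, and the SMART-seq mRNA HT LP kit, a method for low RNA input that primes on poly(A), was used for library preparation. SOD1G93A microglia of both LAG-3 genotypes at 140 days (P140, 6 libraries) and lumbar spinal cord of both genotypes at P140 (6 libraries) come from other samples and are used here to ask whether a P120 difference recurred. The P140 microglial libraries also enter the 12-library model, which estimates the spread between libraries over both ages.

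LAG-3 is an inhibitory immune checkpoint receptor best known on activated T cells, where it binds MHC class II on the opposing cell. Microglia in degenerating spinal cord lower genes of surveillance, such as P2ry12 and Tmem119, and raise a disease-associated (DAM) programme of lipid, lysosomal and phagocytic genes, whose early stage precedes a later one that needs the receptor TREM2. MHC class II itself is raised in activated microglia through the coactivator CIITA.

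The 6 libraries held 27465780 to 49512632 estimated counts, and levels are given as CPM, counts relative to the TMM-scaled library size, which compare libraries but not genes. The 9 microglial markers that could be tested were present in every library, and their summed level was 27530 to 31070 CPM in LAG-3+/+ and 23300 to 32340 CPM in LAG-3-/- libraries. Log2 CPM of all genes correlated between libraries at r = 0.908 to 0.913 within LAG-3+/+, 0.892 to 0.9 within LAG-3-/- and 0.892 to 0.9 between genotypes, a description across genes. The labels do not say that each library is a separate animal, so p-values measure the spread between libraries.

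Lag3 lies on the minus strand of chromosome 6 at chr6:124881320-124888765 (GRCm39). The primers with which the study assayed the gene are shown to mark the parts it probed. The genotyping pair spans the start of the gene, with the forward primer at chr6:124889023-124889043 (minus strand) upstream of the canonical transcript and the reverse primer at chr6:124886928-124886947 (plus strand) in an intron. The qPCR pair lies in exon 4 (chr6:124886195-124886217, minus) and exon 5 (chr6:124885498-124885519, plus) of 8. No base of a primer is singled out, so all letters are in lower case.
Genotyping forward: tgtccaagagatgctgaaagg
Genotyping reverse: ggccatcccttcttctacac
qPCR forward: ctccatcacgtacaacctcaagg
qPCR reverse: ggagtccacttggcaatgagca

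Lag3 was at 62.9, 61.7 and 53.4 CPM in the LAG-3+/+ libraries and at 0.163, 0.462 and 0.251 CPM in the LAG-3-/- libraries, where 7, 14 and 10 counts remained. The groups were far apart, and each library matched its label. Lag3 fell by 7.68 on the log2 scale (SE 0.70, adjusted p = 0.00484, edgeR quasi-likelihood test with Benjamini-Hochberg adjustment). In the P140 libraries it fell by 7.27 (edgeR adjusted p = 0.00451), from 24.5 to 28.1 CPM to 0.0239 to 0.336 CPM, and the difference between the ages missed the threshold (edgeR interaction adjusted p = 0.895). In spinal cord at P140 it fell by 3.41 (edgeR adjusted p = 4.34e-05).

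Across 18669 genes tested in one model of the 12 microglial libraries of both ages, 0 genes rose (0% of those tested) and 2 fell (0.0107%) at an adjusted p under 0.1, Lag3 and Gm30890. At an unadjusted p under 0.05, 196 genes were higher (1.05%) and 355 lower (1.9%). When the same test was fitted to the 6 P120 libraries alone, 17254 genes could be tested, 2 rose (0.0116%) and 29 fell (0.168%), and both genes of the 12-library model were among them. Leaving out 1 P120 library from that fit gave 8 to 20 calls, the fewest without LAG-3+/+ replicate 3. The common dispersion, edgeR's estimate of squared biological variation, was 0.603 with the P140 libraries and 0.341 without them. DESeq2, run as an alternative on the 12 libraries, called 51 genes higher and 113 lower. As a looser description, 905 genes (4.85%) were higher in every LAG-3-/- than in every LAG-3+/+ library and 1237 (6.63%) were lower. These shares are the background for each count of genes without overlap given below for gene groups, and the median log2 fold change of all genes was -0.01.

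**Figure D1:**
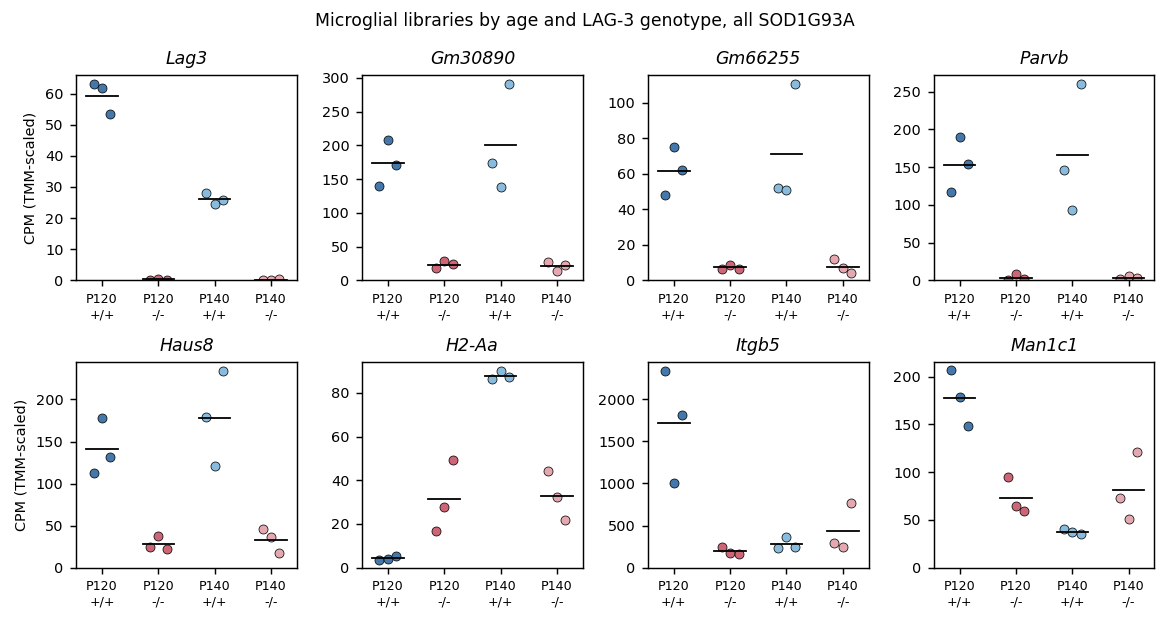
CPM of 8 genes (one panel each, linear axis from 0) in SOD1G93A microglia at P120 and P140 by LAG-3 genotype; points are libraries and lines are group means of 3. Lag3, Gm30890, Gm66255, Parvb and Haus8 separate the genotypes at both ages, whereas H2-Aa and Man1c1 separate them in opposite directions and Itgb5 at P120 only.

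Gm30890, a long noncoding RNA at chr19:53751783-53775395, stood at 140.5, 209 and 172 CPM in LAG-3+/+ and at 17.9, 29.1 and 23.6 CPM in LAG-3-/- microglia. The lowest LAG-3+/+ library was several times the highest LAG-3-/- library. It fell by 2.88 on the log2 scale at P120 (SE 0.36, edgeR adjusted p = 0.0576) and by 3.24 at P140 (edgeR adjusted p = 0.00795), but with any one of the 6 P120 libraries left out it did not pass at P120. In spinal cord its log2 fold change was 0.09 (edgeR adjusted p = 0.828).

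Several genes that missed the threshold at P120 had like values at both ages. Of the 20 genes with the smallest p at P120, 15 were lower and 5 higher in LAG-3-/- microglia, 14 had the same sign at P140, and 10 of these passed the test there, against 7.22% of all genes called higher and 3% called lower at P140. The 10 include Lag3, the deleted gene. The 20 were ranked in the model whose estimate of spread the P140 test shares, so the comparison with all genes is not independent. Parvb, which encodes the focal adhesion protein beta-parvin, was at 117, 189 and 154 CPM in LAG-3+/+ against 0.953, 8.08 and 1.65 CPM in LAG-3-/- microglia (log2 fold change -5.44, SE 0.83, edgeR adjusted p = 0.118). At P140 it fell by 5.48 (edgeR adjusted p = 0.018), again with no overlap between the groups. Haus8, a subunit of the augmin complex that builds spindle microtubules, was at 113, 178 and 132 CPM against 24.7, 38.2 and 21.8 CPM (log2 fold change -2.32, SE 0.39, edgeR adjusted p = 0.186). It fell by 2.41 at P140 (edgeR adjusted p = 0.0205), whereas in spinal cord it rose by 0.65 (edgeR adjusted p = 0.00192).

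The noncoding RNAs Gm66255 (chr6:52346291-52348849), Gm63702 (chr8:26621566-26648594) and Gm40946 (chr13:50584558-50621225) showed the same pattern. Gm66255 was at 48.3 to 74.9 CPM in LAG-3+/+ and 6.35 to 8.90 CPM in LAG-3-/- microglia (log2 fold change -3.08, edgeR adjusted p = 0.107), and it fell by 3.23 at P140. Gm63702 had log2 fold changes of -2.32 at P120 and -2.79 at P140, and Gm40946 of -1.99 and -2.02, both passing the 12-library test at P140 only. Ppp1r16b, a regulatory subunit of protein phosphatase 1, was at 24.8, 38.1 and 33.3 CPM against 14.999, 11.2 and 8.57 CPM (log2 fold change -1.47), and at P140 it fell by 2.03. On the higher side, the noncoding RNA 4930412F09Rik was at 0.259 to 0.740 CPM in LAG-3+/+ and 3.86 to 8.97 CPM in LAG-3-/- microglia (log2 fold change 3.63), and it rose by 3.35 at P140. None of these RNAs overlapped between the genotypes at P120.

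**Figure D2:**
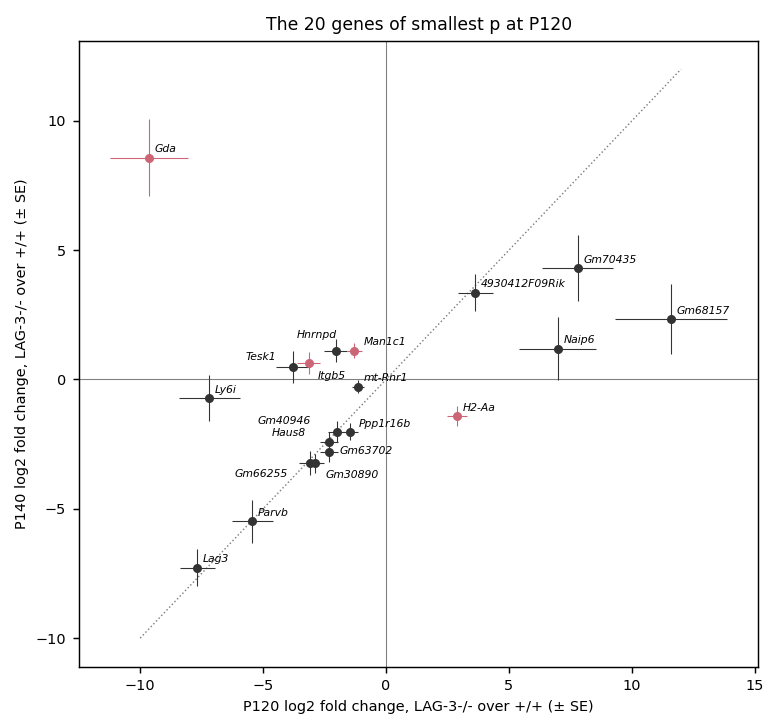
Log2 fold change (LAG-3-/- over LAG-3+/+) at P120 (x axis) and P140 (y axis) of the 20 genes with the smallest p at P120. Standard errors are drawn and the line of equality is dotted. The 2 ages share no library, but their tests share the estimate of spread. Red marks the 4 genes whose effects differed between ages by edgeR's interaction test. A diagonal group from Lag3 to 4930412F09Rik has like values at both ages, while H2-Aa, Itgb5, Man1c1, Gda, Tesk1 and Hnrnpd change sign; the fitted size of Gda and Gm68157 depends on the prior count because a group was at 0.

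Within 10 Mb of Lag3 on chromosome 6, 223 other genes were tested and 0 passed in the 12-library model; 14 of them (6.28%) were higher and 16 (7.17%) lower without overlap. One of them, the noncoding RNA Gm68157 (chr6:128969794-128985006), had 0 counts in all 3 LAG-3+/+ libraries and 9.74, 11.5 and 11.9 CPM in the LAG-3-/- libraries, at least 171-fold higher taken against a floor of 3 counts per library. It rose in the fit of the 6 P120 libraries (edgeR adjusted p = 0.0197). At P140 the genotypes overlapped, with 0, 11.0 and 3.11 CPM against 44.2, 16.8 and 10.2 CPM, and it rose in spinal cord (log2 fold change 1.19, edgeR adjusted p = 0.00175). Gapdh, Klrb1c and Clec7a, described below with their gene lists, lie in the same window. Gapdh and Klrb1c were among the 16 lower without overlap.

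MHC class II molecules are the classical ligand of LAG-3. H2-Aa and H2-Eb1, which encode class II chains, were higher in every LAG-3-/- than in every LAG-3+/+ library at P120. H2-Aa, a class II alpha chain, was at 3.56, 3.83 and 5.38 CPM in LAG-3+/+ and at 16.7, 27.9 and 49.5 CPM in LAG-3-/- microglia. The log2 fold change of 2.88 (SE 0.41) missed the threshold (edgeR adjusted p = 0.107), and it passed in 5 of the alternatives, among them without LAG-3-/- replicate 1. At P140 the order of the genotypes was opposite: H2-Aa was at 86.2, 89.9 and 87.3 CPM in LAG-3+/+ and at 44.2, 32.4 and 22.03 CPM in LAG-3-/- microglia, a fall by 1.42 (edgeR adjusted p = 0.0656). The effects at the ages differed (edgeR interaction adjusted p = 0.0374).

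H2-Eb1, a class II beta chain, was at 3.33, 0.185 and 1.56 CPM against 9.26, 9.53 and 24.4 CPM (log2 fold change 3.09, SE 0.82, edgeR adjusted p = 1). The invariant chain gene Cd74 was at 187, 298 and 177 CPM against 329, 379 and 648 CPM (log2 fold change 1.04, SE 0.30, edgeR adjusted p = 1). H2-Ab1, the partner chain of H2-Aa, was at 35.8, 63.0 and 31.1 CPM against 51.5, 83.2 and 126 CPM (log2 fold change 1.004, SE 0.40). H2-Eb1 and Cd74 did not overlap between the genotypes, H2-Ab1 did, and LAG-3-/- replicate 3 was the highest library for all 3. The costimulatory receptor Cd40 was at 0.658, 0.259 and 0.333 CPM against 7.84, 4.05 and 3.41 CPM, also without overlap.

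Across the 16 class II presentation genes tested, 0 passed in either direction, 4 were higher and 2 lower without overlap, and the median log2 fold change was 0.03. The lower ones were the peptide-loading genes H2-DMa and H2-DMb1, with log2 fold changes of -0.24 and -0.18. At an unadjusted p under 0.05 (edgeR, 12 libraries), 5 of the 16 were higher and 0 lower, against 1.05% and 1.9% of all genes. Ciita was at 0.802, 0.259 and 0.0768 CPM against 0.163, 0.0989 and 3.11 CPM, high in LAG-3-/- replicate 3 alone, and the costimulator Cd86 at 344 to 410.2 CPM against 340 to 400.1 CPM. At P140 the list median was -0.77, 0 members rose and 5 fell, namely H2-Aa, H2-DMa, H2-DMb1, Ciita and Cd86. Over all genes at P140 the median was 0.14, 7.22% rose and 3% fell. The gene models of H2-Aa and H2-Eb1 overlap on opposite strands, and whether reads were counted by strand is not given in the sources used here.

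The promoters of 3 class II genes are printed because class II promoters share a known arrangement, an X box followed by a Y box before the start, through which CIITA acts. The windows run from 250 bases before to 50 bases after the start of the GENCODE vM39 canonical transcript in GRCm39: H2-Aa at chr17:34506748-34507047 (minus strand), H2-Ab1 at chr17:34481933-34482232 (plus) and H2-Eb1 at chr17:34524563-34524862 (plus). Capitals mark matches to the X box, the longer run, and to TGATTGG, the Y box, which were searched on both strands and do not overlap each other.
H2-Aa: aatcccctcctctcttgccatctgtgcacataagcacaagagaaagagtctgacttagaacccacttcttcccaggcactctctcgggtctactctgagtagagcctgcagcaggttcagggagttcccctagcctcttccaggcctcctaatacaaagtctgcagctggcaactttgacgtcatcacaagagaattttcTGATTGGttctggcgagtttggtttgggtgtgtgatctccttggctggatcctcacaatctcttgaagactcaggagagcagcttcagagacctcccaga
H2-Ab1: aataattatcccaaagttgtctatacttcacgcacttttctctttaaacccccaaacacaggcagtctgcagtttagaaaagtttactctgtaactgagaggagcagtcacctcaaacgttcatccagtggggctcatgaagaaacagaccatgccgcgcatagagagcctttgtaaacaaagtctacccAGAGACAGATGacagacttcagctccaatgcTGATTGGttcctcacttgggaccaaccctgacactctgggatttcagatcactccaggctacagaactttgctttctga
H2-Eb1: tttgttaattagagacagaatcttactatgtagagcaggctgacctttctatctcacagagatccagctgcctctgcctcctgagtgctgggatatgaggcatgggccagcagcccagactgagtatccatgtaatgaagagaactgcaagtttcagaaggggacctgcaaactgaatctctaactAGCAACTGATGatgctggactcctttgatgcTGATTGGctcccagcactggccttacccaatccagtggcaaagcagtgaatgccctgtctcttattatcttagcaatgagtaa

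H2-Ab1 and H2-Eb1 held both motifs, with the X box starting at -60 and -64 and the Y box at -29 and -33 from the transcript start. H2-Aa held the Y box at -50 and no match to the X box pattern searched. Variants that differ from this pattern were not searched, so H2-Aa was not shown to lack an X box. Among 21751 promoters of the same length, 0.869% matched that X box pattern, 9.21% the Y box pattern and 0.0828% both. H2-DMa, which was lower in LAG-3-/- microglia, also held both, at -73 and -41.

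Itgb5 encodes integrin beta 5, a receptor subunit used in the uptake of apoptotic cells. It was at 2336, 1002 and 1818 CPM in LAG-3+/+ and at 245, 177 and 162 CPM in LAG-3-/- microglia, well apart. The log2 fold change was -3.14 (SE 0.47, edgeR adjusted p = 0.107 in the 12-library model), and it fell in the fit of the 6 P120 libraries (edgeR adjusted p = 0.0287). At P140 the genotypes overlapped, with 235, 359 and 250.5 CPM against 294, 243 and 772 CPM, and the effects at the ages differed (edgeR interaction adjusted p = 0.0908). Man1c1, a Golgi mannosidase, was at 207, 179 and 149 CPM against 95.4, 64.5 and 59.4 CPM at P120, without overlap (log2 fold change -1.28). At P140 it rose by 1.12 (edgeR adjusted p = 0.065).

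Other genes fell in the fit of the 6 P120 libraries and kept counts in LAG-3-/- microglia. Hnrnpd, an RNA-binding protein that promotes decay of AU-rich transcripts, was at 98.0, 70.8 and 71.7 CPM against 22.7, 18.7 and 17.2 CPM (edgeR adjusted p = 0.0272). Slc35e1, a member of a sugar transporter family, was at 55.8, 42.7 and 56.1 CPM against 15.8, 14.2 and 11.8 CPM (edgeR adjusted p = 0.0403). Both also passed with DESeq2 on the 12 libraries (DESeq2 adjusted p = 0.00965 for Hnrnpd and 0.0174 for Slc35e1). They were apart at P120 and overlapped between genotypes at P140. Of the 11 genes that fell in that fit with more than 3 counts in a LAG-3-/- library, 6 had the same sign at P140 and 5 passed the 12-library test at that age. These 5 were Lag3, Gm30890, Gm66255, Gm63702 and Haus8, all described above. The 11 also include the neutrophil transcript Ltf, described below.

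Several neutrophil transcripts fell in the fit of the 6 P120 libraries. Of the 29 genes that fell there, 18 had at most 3 counts in each LAG-3-/- library, 13 had 0 counts in all of them, and 6 belong to a list of 12 neutrophil markers. S100a8, a calprotectin subunit, was at 501, 549.7 and 411 CPM in LAG-3+/+ and 0.0465, 0.0330 and 0.0251 CPM, 2, 1 and 1 counts, in LAG-3-/- microglia. Its partner S100a9 was at 296, 415 and 256 CPM against 0.0233, 0.0659 and 0.0251 CPM. Ngp, a granule protein, was at 748, 746 and 452 CPM against 1, 0 and 0 counts, a ratio of 73432 with a 95% counting interval of 13180 to 2900410. These transcripts were thus abundant in all LAG-3+/+ and almost missing from all LAG-3-/- libraries.

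Camp, the antimicrobial peptide cathelicidin, was at 216, 128 and 103 CPM in LAG-3+/+ microglia and at 0 counts in every LAG-3-/- library, at least 1836-fold lower against the floor of 3 counts per library. By the same floor Lcn2, a siderophore-binding lipocalin, was at least 947-fold lower, Cd177, a neutrophil surface protein, at least 468-fold, and Chil3, a chitinase-like protein of myeloid cells, at least 2023-fold. Ltf, which encodes lactoferrin, was at 244, 480.4 and 338 CPM against 0.0233, 0.890 and 0 CPM. These 5 genes fell in the fit of the 6 P120 libraries (edgeR adjusted p = 0.00466 to 0.0403), and in the 12-library model each had an edgeR adjusted p of 1. DESeq2 on the same 12 libraries called all of them lower, and 29 of the 31 genes of the 6-library fit.

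The P140 libraries showed these transcripts in both genotypes. S100a8 was there at 728, 184 and 0.0384 CPM in LAG-3+/+ and at 0.868, 186 and 1040.2 CPM in LAG-3-/- microglia, so each genotype had libraries with and without it. All 12 markers of the neutrophil list were tested at P120, where 7 were lower without overlap and 0 passed in the 12-library model. The median log2 fold change was -12.06, or -8.79 with genes at 0 counts set at their bound, and 0.78 at P140. Summed over the list, the P120 level was 2235 to 3130 CPM in LAG-3+/+ and 510.5 to 633 CPM in LAG-3-/- microglia, and the P140 level 322 to 3813 CPM and 532 to 5074 CPM. Csf3r, the G-CSF receptor, was at 538, 564 and 506 CPM against 571, 506 and 630.4 CPM and made up most of the sum in LAG-3-/- microglia at P120. Ly6g, the defining surface marker, was at 0, 12.6 and 6.66 CPM in LAG-3+/+ microglia and at 0 counts in all LAG-3-/- libraries.

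**Figure D3:**
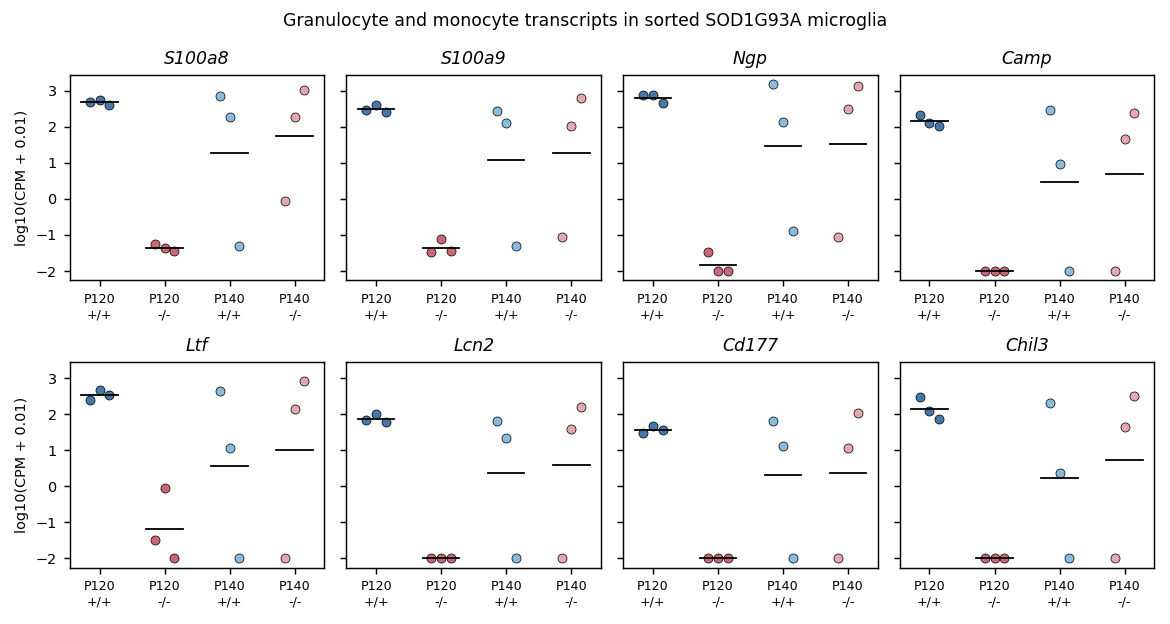
Log10(CPM + 0.01) of 8 neutrophil or monocyte transcripts (one panel each) in SOD1G93A microglia by age and LAG-3 genotype; points are libraries, lines are means of 3 on this scale, and -2 stands for 0 counts. All P120 LAG-3+/+ libraries are high and all P120 LAG-3-/- libraries at or near 0, whereas each P140 group holds both high and low libraries.

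Of 9 monocyte markers tested, 5 were lower without overlap, and Chil3 and Hp, the haemoglobin scavenger haptoglobin, fell in the fit of the 6 P120 libraries. The monocyte chemokine receptor Ccr2 was at 1.30, 0.0370 and 0.128 CPM against 0.0698, 0.0989 and 1.96 CPM, overlapping. The summed list was at 141 to 320.4 CPM in LAG-3+/+ and 3.98 to 20.9 CPM in LAG-3-/- microglia. Chil3 alone, at 299, 119 and 75.0 CPM, made up most of the sum in each LAG-3+/+ library. Of the 9 markers tested, 3 had a positive log2 fold change, so the sum does not describe monocyte markers as a whole. In RNA from a sorted pool, fewer cells of a type and less RNA per cell cannot be told apart, and the part of neutrophil and monocyte RNA in the other differences at P120 was not tested. With the listed neutrophil and monocyte markers left out, the fit of the 6 P120 libraries called 2 genes higher and 19 lower, against 2 and 29 with them. Neither list holds Cd177, Wfdc21, Itgb2l or Serpinb1a, which also had 0 counts in every LAG-3-/- library at P120. The 19 were therefore not shown to be free of neutrophil or monocyte RNA.

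Markers of other cell types were few or overlapping, apart from the summed natural killer and neuronal lists. All 8 mast cell and basophil markers were at 0 in the 6 libraries, as were the T cell markers Cd3e, Trac, Trbc1 and Trbc2, the B cell markers Cd79a and Pax5, and the natural killer cell markers Ncr1, Gzma, Gzmb, Nkg7, Klrk1 and Xcl1. The summed natural killer list was 1.46 to 4.56 CPM in LAG-3+/+ and 0.0752 to 0.256 CPM in LAG-3-/- microglia. That sum was mainly Klrb1c, at 188, 77 and 73 counts in LAG-3+/+ and 9, 5 and 0 in LAG-3-/- libraries. Klrd1 added 103 counts in LAG-3+/+ replicate 3 alone, and other members were at or near 0. Only 1 of the 12 members could be tested, so the sum does not describe natural killer cells as a whole. T cell markers summed to 14.4 to 23.02 CPM against 11.5 to 43.6 CPM, and neuronal markers to 9.59 to 12.5 CPM against 0 to 3.63 CPM. Border macrophage markers summed to 34.7, 23.7 and 10.4 CPM against 4.72, 76.0 and 11.2 CPM, highest in LAG-3-/- replicate 2. The sums of B cell, dendritic cell, astrocyte, oligodendrocyte and endothelial markers overlapped between genotypes.

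The mitochondrial genome gave the most uniform shift among the gene lists. Its 13 protein-coding genes, which encode subunits of the respiratory chain and are cut from shared transcripts, all had negative log2 fold changes, 12 were lower without overlap, and the median was -0.57. None passed the test (edgeR, 12 libraries), 9 having an unadjusted p under 0.05, and the list median stayed between -0.73 and -0.41 in every alternative. mt-Nd1, a complex I subunit, was at 1440.3, 1207 and 1234 CPM in LAG-3+/+ and at 668, 971 and 827 CPM in LAG-3-/- microglia (log2 fold change -0.65, SE 0.17). Another complex I subunit, mt-Nd5, was at 601, 503 and 471 CPM against 294, 410 and 379 CPM. In both, LAG-3-/- replicate 2 was the LAG-3-/- library nearest to the LAG-3+/+ range. The mitochondrial ribosomal RNA mt-Rnr1, which is outside the list, was at 99.2, 108 and 102 CPM against 43.3, 49.7 and 46.2 CPM and fell in the fit of the 6 P120 libraries (edgeR adjusted p = 0.0467).

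At P140 the median of the same 13 genes was -0.50, against 0.14 for all genes. There mt-Co1, mt-Co3 and mt-Cytb fell, as did 3% of all genes. In spinal cord, where 23.1% of genes rose and 23.9% fell at an adjusted p under 0.1, mt-Nd1 rose by 1.28 (edgeR adjusted p = 0.00909). Nuclear-encoded subunits of oxidative phosphorylation had a median of -0.30 at P120, and 10 of 75 were lower and 0 higher without overlap. The complex I subunit Ndufb5 was at 46.5, 36.3 and 44.9 CPM against 25.2, 30.8 and 26.8 CPM, and Ndufa3 at 71.3, 52.3 and 67.2 CPM against 40.2, 54.7 and 35.2 CPM. Glycolytic genes had a median of -0.28 over 25 tested, with 5 lower and 1 higher without overlap. Gapdh was at 1143, 909.8 and 895 CPM against 587, 886 and 679 CPM, and Pfkl, the liver-type phosphofructokinase, at 206, 179 and 208 CPM against 124, 178 and 141 CPM. Ndufb5, Gapdh and Pfkl did not overlap between genotypes, and no member of these 3 lists passed the test.

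Cell cycle and DNA replication genes had a median of -0.77, with 85 of 91 below 0, 21 lower and 0 higher without overlap, and 0 passing. Ccnb1, the cyclin of mitotic entry, was at 62.9, 12.6 and 57.2 CPM in LAG-3+/+ and at 8.79, 11.3 and 4.81 CPM in LAG-3-/- microglia (log2 fold change -2.41, SE 0.61). Prim1, the catalytic subunit of DNA primase, was at 15.2, 14.7 and 16.7 CPM against 2.53, 7.85 and 2.38 CPM. Top2a, a topoisomerase of dividing cells, was at 98.1, 57.4 and 106 CPM against 32.1, 27.1 and 14.6 CPM. None of these overlapped, although LAG-3+/+ replicate 2 was low for Ccnb1.

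As the median of the list relative to the LAG-3+/+ mean on the log2 scale, LAG-3+/+ replicates 1, 2 and 3 were at 0.59, -0.69 and 0.25 and the LAG-3-/- libraries at -0.49, -0.52 and -0.93. LAG-3+/+ replicate 2 thus lay among the LAG-3-/- libraries, and the list median was -0.57 to -1.13 over the alternatives. At P140 the list median was 0.33, and 4 of the 91 genes rose and 1 fell there, against 7.22% and 3% of all genes. The proliferation marker Mki67 and the mitotic checkpoint kinase Bub1 rose by 3.08 and 3.07 on the log2 scale, and Pcna, the sliding clamp of DNA polymerase, fell by 0.76. Neutrophil transcripts were high in all LAG-3+/+ libraries at P120, replicate 2 included, and their part in the cell cycle values was not tested.

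**Figure D4:**
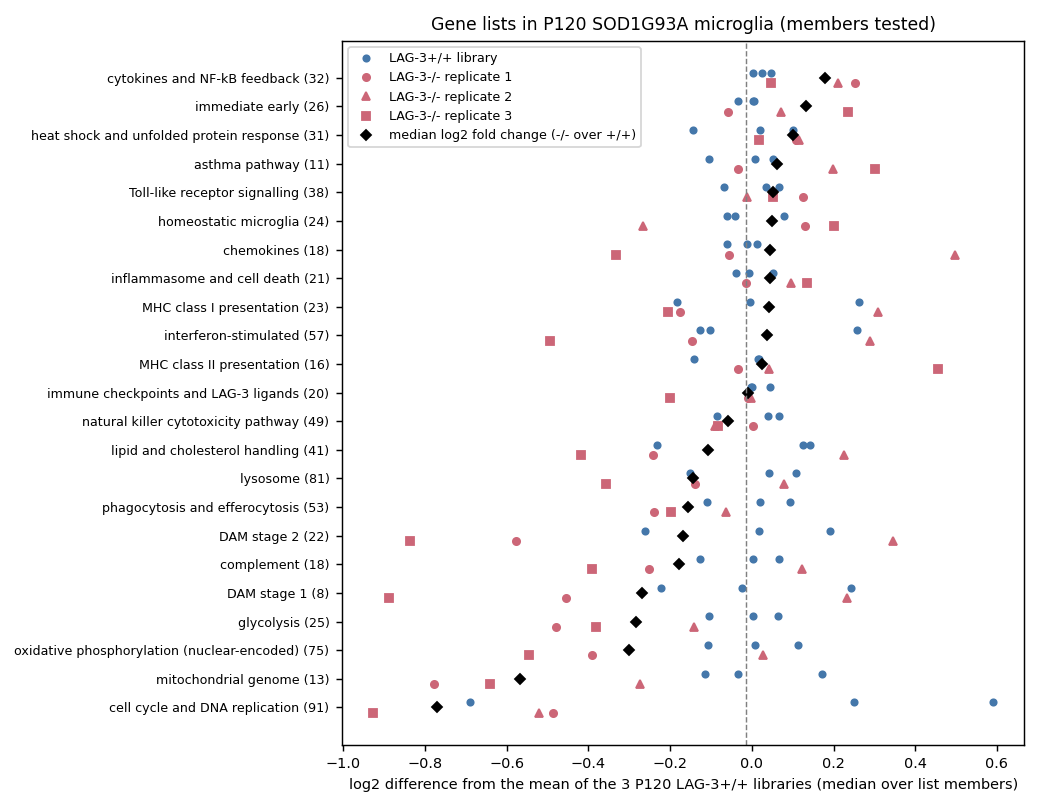
Gene lists at P120 (one row each, number of members tested in brackets) with the median log2 fold change as a black diamond and, per library, the median over members of the log2 difference from the LAG-3+/+ mean (blue LAG-3+/+, red LAG-3-/-, shape by replicate); the dashed line is the median of all genes. Cell cycle (-0.77) and mitochondrial genome (-0.57) are lowest of the lists drawn, which leave out the cell type marker lists, and in the DAM lists replicate 2 of LAG-3-/- lies to the right of replicates 1 and 3.

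DAM genes showed no shift shared by the LAG-3-/- libraries. Of the 8 stage 1 genes 0 were without overlap, and of 22 stage 2 genes only the chemokine Ccl6 was, at 925 to 972 CPM against 693 to 873 CPM. Stage 1 had a median of -0.27 and stage 2 of -0.17, and 0 genes of either list passed. On the log2 scale the stage 2 list was at 0.19, 0.02 and -0.26 in LAG-3+/+ and at -0.58, 0.34 and -0.84 in LAG-3-/- replicates 1, 2 and 3, so replicate 2 lay above and replicates 1 and 3 below all LAG-3+/+ libraries. The stage 2 median was -0.72 without LAG-3-/- replicate 2 and 0.043 without replicate 3.

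Apoe, the lipid carrier that marks DAM, was at 23959, 17578 and 13202 CPM in LAG-3+/+ and at 7928, 37416 and 5158 CPM in LAG-3-/- microglia (log2 fold change -0.12, SE 0.61). Spp1, which encodes osteopontin, was at 4881, 4382 and 3861 CPM against 1407, 5585 and 1234 CPM (-0.67, SE 0.51). Cst7, a lysosomal protease inhibitor, was at 497, 269 and 208 CPM against 178, 646 and 59.3 CPM (-0.14, SE 0.68). For each of these genes replicate 2 was the highest of the 6 libraries and replicates 1 and 3 the lowest. The melanosomal glycoprotein gene Gpnmb had the same order, at 108, 26.6 and 35.6 CPM against 4.84, 310.3 and 0.301 CPM.

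Clec7a, the phagocytic receptor Dectin-1, was at 709, 809 and 511 CPM against 269, 637 and 192 CPM (log2 fold change -0.89, SE 0.38), and it fell at P140 by 1.31 (edgeR adjusted p = 0.0795). The lipase Lpl was at 1018, 1063 and 854 CPM against 708, 1776 and 904 CPM (0.21). Itgax, the integrin CD11c, was at 181, 158 and 135 CPM against 103, 276 and 143 CPM (0.14). For Lpl and Itgax replicate 2 was again the highest library. Axl, a receptor for dying cells, was at 1159, 904 and 673 CPM against 636, 1255 and 571 CPM (-0.15), also highest in replicate 2. The lipid sensor Trem2 was at 1199, 1096 and 1085 CPM against 1038, 1134 and 854 CPM (-0.16, SE 0.25), and its signalling adaptor Tyrobp at 2224, 1717 and 1717 CPM against 1248, 1758 and 879.8 CPM (-0.54, SE 0.33). Both overlapped between genotypes.

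Homeostatic genes were arranged the opposite way. P2ry12, a purinergic receptor of surveying microglia, was at 1921, 2932 and 3196 CPM in LAG-3+/+ and at 4269, 1457 and 4603 CPM in LAG-3-/- microglia (log2 fold change 0.36, SE 0.43). Tmem119, a microglial membrane protein, was at 1431, 1645 and 1868 CPM against 2308, 806 and 2363 CPM (0.15, SE 0.38). Here replicate 2 was the lowest of the 6 libraries and replicates 1 and 3 the highest. Selplg, which encodes PSGL-1, had the same order (0.06, SE 0.32), whereas Cx3cr1, the fractalkine receptor, was at 1649 to 1864 CPM against 1485 to 1784 CPM (-0.08, SE 0.27). Over the 24 homeostatic genes tested the median was 0.05, with 1 higher and 0 lower without overlap and 0 passing.

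**Figure D5:**
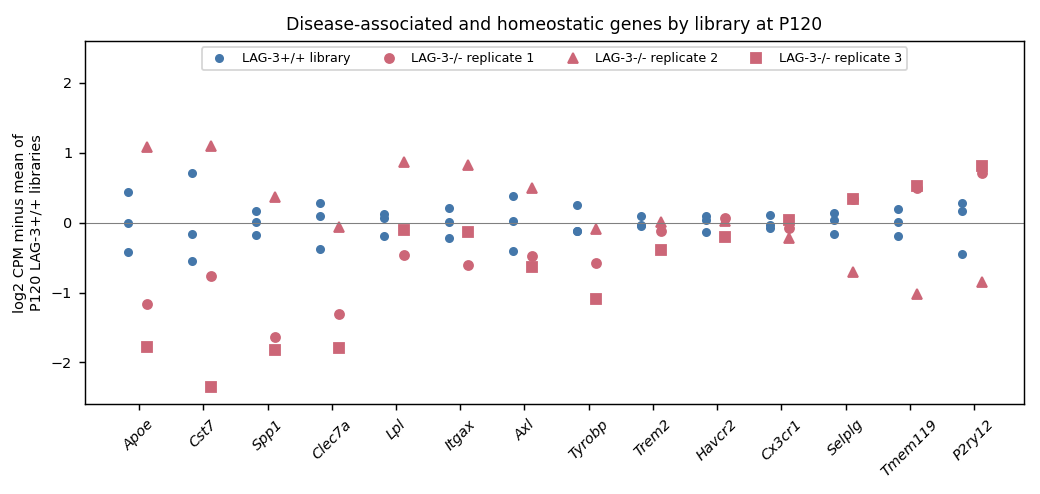
Log2 CPM of 9 DAM genes, Havcr2 and 4 homeostatic genes (x axis) in the 6 P120 libraries, each relative to the mean of the 3 LAG-3+/+ libraries (blue); LAG-3-/- libraries are red with their replicate by shape. Replicate 2 of LAG-3-/- is above the other 2 for Apoe, Cst7 and Spp1 and below them for Tmem119 and P2ry12.

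Over all genes, the first principal component of the 6 libraries held 24.7% of the variance and placed the LAG-3+/+ libraries at -63.05, -60.5 and -62.41 and the LAG-3-/- libraries at 87.93, 13.64 and 84.39. The second, with 21.4%, set LAG-3-/- replicate 2 at 134.5 apart from the others. Without LAG-3-/- replicate 2 the 12-library model called 3 genes, Lag3, Parvb and 5930430L01Rik, and Gm30890 was no longer among them. In that fit the log2 fold change of Spp1 was -1.73 and that of Apoe -1.48, neither passing. In a fit of the 5 remaining P120 libraries 19 genes were called, Spp1 among them, of which 16 were among the 31 called from all 6.

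Havcr2, which encodes the checkpoint receptor TIM-3, was at 300, 311 and 265 CPM in LAG-3+/+ and at 305, 297 and 252 CPM in LAG-3-/- microglia (log2 fold change -0.04, SE 0.18). Among 20 checkpoint and LAG-3 ligand genes tested the median was -0.01, 0 passed, and Cd47, which restrains phagocytosis, was the only one without overlap, at 121, 146 and 148 CPM against 117, 114 and 116 CPM. Pdcd1lg2, which encodes the PD-1 ligand PD-L2, had counts in 1 library.

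Apart from cytokine and NF-kB feedback genes, inflammatory lists had medians near that of all genes (-0.01). A few members were high in some or all LAG-3-/- libraries. Cytokine and NF-kB feedback genes had a median of 0.18 over 32 tested, with 23 above 0 and 9 below. Of these, 3 were higher and 0 lower without overlap. Nfkb2, an NF-kB subunit, was at 41.5, 35.3 and 42.1 CPM against 58.9, 57.3 and 57.9 CPM, and Il1rn, the interleukin-1 receptor antagonist, at 20.8, 12.7 and 29.7 CPM against 35.0, 47.7 and 45.3 CPM. Of 18 chemokines 3 were higher and 2 lower without overlap. Ccl5, which attracts T cells, was at 5.02, 1.57 and 8.50 CPM against 52.3, 44.5 and 9.0002 CPM (log2 fold change 2.81, SE 0.93), so that replicate 3 was barely above the LAG-3+/+ range.

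Interferon-stimulated genes had a median of 0.04 over 57 tested, 5 higher and 2 lower without overlap. Ifit1, an antiviral RNA sensor, was at 28.5, 11.6 and 5.15 CPM against 472, 27.6 and 5.01 CPM, high in the first LAG-3-/- library alone. The guanylate-binding protein Gbp2 was at 1.95, 2.52 and 6.32 CPM against 15.3, 28.6 and 30.5 CPM, without overlap. Xaf1 was lower, at 75.8, 93.1 and 82.7 CPM against 15.7, 36.5 and 28.4 CPM (log2 fold change -1.64, SE 0.45). Class I presentation genes had a median of 0.04, and 0 of 23 were without overlap.

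Naip6, an inflammasome sensor of bacterial proteins, was at 0.0617, 0.278 and 0.0512 CPM in LAG-3+/+ and at 12.2, 22.6 and 17.2 CPM in LAG-3-/- microglia, and it rose in the fit of the 6 P120 libraries (edgeR adjusted p = 0.0326). At P140 the genotypes overlapped, at 7.64, 5.74 and 0 CPM against 10.3, 14.6 and 5.61 CPM. Naip6 belongs to a family of near-identical genes among which estimated counts can be split in different ways, so its level is uncertain. The rest of the 21 inflammasome and cell death genes tested overlapped between genotypes, and the list median was 0.04.

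Phagocytosis and lysosome genes, which belong in part to the DAM programme, had medians of -0.16 over 53 and -0.14 over 81 tested. In the phagocytosis list 6 genes, Itgb5 among them, were lower and 1, the scavenger receptor Cd36, higher without overlap. Msr1, another scavenger receptor, was at 46.1, 27.3 and 21.5 CPM against 73.9, 119 and 29.5 CPM, overlapping. In the lysosome list 4 were lower and 3 higher, and Mcoln1, a lysosomal calcium channel, was at 97.2, 111 and 83.9 CPM against 111, 176 and 129 CPM. Complement genes had a median of -0.18 (1 higher, 1 lower of 18) and lipid and cholesterol genes of -0.11 (1 higher, 3 lower of 41). Toll-like receptor genes had a median of 0.05 (0 higher, 3 lower of 38), immediate early genes of 0.13 (1 higher, 2 lower of 26) and heat shock and unfolded protein response genes of 0.10 (1 higher, 0 lower of 31). None of these lists had a member that passed the test in the 12-library model.

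The study reports the pathways of natural killer cytotoxicity and asthma as enriched among genes that were higher in LAG-3-/- microglia at P120. Here every member that could be tested is counted, called or not, which is a different measure. Both pathways were listed because the study names them, so their counts are not independent evidence of a direction. In the first, 49 of 71 genes could be tested, 1 was higher and 5 lower without overlap, 0 passed, and the median was -0.06. Klrb1c, the NK1.1 receptor, was at 3.87, 1.43 and 1.87 CPM against 0.209, 0.165 and 0 CPM, and Fyn, a Src-family kinase, at 50.2, 50.5 and 42.7 CPM against 15.3, 17.8 and 27.8 CPM. In the second, 11 of 25 genes could be tested, 9 of them class II presentation genes counted above, 3 were higher and 2 lower without overlap, 0 passed, and the median was 0.06. Its mean log2 fold change was 0.92. At an unadjusted p under 0.05 (edgeR, 12 libraries), 4 of the 11 were higher and 0 lower, against 1.05% and 1.9% of all genes. The first pathway had 0 higher and 1 lower of 49 at that level. Fcer1a and Ms4a2, receptor chains of mast cells, had 0 counts in all 6 libraries.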

How the data were processed

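Reads were trimmed with Trim Galore 0.6.7, quantified with Salmon 1.9.0 against GRCm39 and summarised per gene with tximport in R 4.2.1, per the labels and the study's methods; the annotation release is not given in the sources used here. The authors deposited estimated counts per gene, not normalized, with 74016 rows for the 12 microglial libraries of both ages, and likewise for spinal cord. Here they were rounded to whole numbers and named with GENCODE vM39, which lacks 66 of the identifiers (0.0514% of counts). edgeR 4.0.16 in R 4.3.3 was used with filterByExpr (minimum count 10, total 15), TMM factors, robust dispersions and the quasi-likelihood F-test on 4 group means, where the study used DESeq2 on genotype, age and their interaction. Genes were called at a Benjamini-Hochberg adjusted p under 0.1, and the SE is the absolute log2 fold change over the root of F. The floor was 3 counts per library, and intervals and floors cover counting error only.

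Groups come from the labels. The comparison and the 37 gene lists were chosen with earlier results of these data known. Named genes are Lag3, the called genes, the 14 genes the study names in microglia and the 2 members of smallest p of each list; those called from the 6 P120 libraries alone, the 20 of smallest p and further list members were named after their values were seen. DESeq2 1.42.0, other normalizations, filters, covariates and left-out libraries were alternatives. The fits were tested on simulated data. LAG-3-sorted libraries were not used here, and a few list members are not reported here. No pair of libraries of a genotype agreed within sampling noise (chi-square per gene 73 to 196).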

Additional observations from a re-analysis of the deposited data

Results flagged for a closer look

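The genotype effects of 4 described genes differed between P120 and P140 in edgeR's interaction test, with Benjamini-Hochberg adjustment over all genes, of which 32 (0.171%) passed. The difference in log2 fold change, P140 minus P120, was -4.30 for H2-Aa (edgeR adjusted p = 0.0374), 3.78 for Itgb5 (0.0908) and 2.40 for Man1c1 (0.0959). For Gda, a guanine deaminase, it was 18.2 (0.0374), a fitted size that depends on the prior count. Gda was at 3.02, 4.202 and 1.33 CPM in LAG-3+/+ and at 0 counts in all LAG-3-/- libraries at P120, at least 35.1-fold lower against 3 counts per library, whereas at P140 it was at 0.0415, 0 and 0 CPM in LAG-3+/+ and 3.16, 2.53 and 15.04 CPM in LAG-3-/- microglia.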

How the results depend on the processing

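Lag3 fell in every alternative but one. With the replicate number as a block its log2 fold change was -7.75 (edgeR adjusted p = 0.169), and 0 genes rose and 0 fell, with 338 at an unadjusted p under 0.05. The numbers do not pair the libraries, since deviations of same-numbered libraries correlated at r = -0.024, -0.0189 and 0.0181. Of the 0 genes higher and 2 lower, DESeq2 gave 51 and 113, the 6 P120 libraries alone 2 and 29, no filter 1 and 6, CPM without TMM factors 1 and 3, transcript length and GC offsets 1 and 2, sex as a covariate 0 and 1, and an adjusted p under 0.05 0 and 1. Leaving out 1 library gave 0 to 1 higher and 1 to 3 lower; Gm30890 was lost without any of the 6 (edgeR). H2-Aa passed with DESeq2, with no filter, without TMM factors, with length and GC offsets and without LAG-3-/- replicate 1. Within the fit of the 6 P120 libraries, leaving out 1 library gave 8 to 20 calls, 8 to 16 of them among the 31. Leaving out the listed neutrophil and monocyte markers gave 2 higher and 19 lower there. Both alternatives were chosen after seeing the data.

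The class II list had a mean of 0.79 against its median of 0.03. The neutrophil median was -12.40 with DESeq2, -13.01 in the 6 libraries, -12.59 with sex, -11.70 with the replicate block and -10.54 to -12.86 with 1 library left out, and its mean was -10.27. Of 92 named genes 9 changed sign in some alternative, none of them called. With 1 library left out, the log2 fold change ranged from -0.28 to 0.45 for Lpl, -0.36 to 0.40 for Itgax, -0.084 to 0.50 for Tmem119, -0.60 to 0.055 for Axl, -1.45 to 0.34 for Cst7, -0.10 to 0.040 for Havcr2, -1.48 to 0.31 for Apoe and -0.11 to 0.33 for Selplg. Without TMM factors Cx3cr1 was at 0.027 and Havcr2 at 0.068, with length and GC offsets Havcr2 was at 0.016, and with the replicate block Selplg was at -0.0097. The cause of these changes was not tested.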
